A study of Homo sapiens with 4 samples.

Results

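The genes described here are feedback and output genes of the ERK pathway together with a pair of EGFR ligands: the MAP kinase phosphatase genes DUSP4, DUSP5 and DUSP6, the Sprouty-related genes SPRY2, SPRY4 and SPRED1, the PEA3 factor genes ETV4 and ETV5, and the ligand genes AREG and EREG. These 10 genes were taken by name from the 58302 gene identifiers of the deposited tables. They were measured by RNA-seq in MIB1-iKO cells, a derivative of the human non–small cell lung cancer line NCI-H838 in which doxycycline (dox) turns on Cas9 beside an integrated guide RNA against MIB1, the gene of the ubiquitin ligase Mind bomb 1. The no dox group (n = 2) carried the same guide and Cas9 construct without inducer, and the dox group (n = 2) was sampled at day 3 of dox at 0.5 μg/mL, both with basal BMP signaling. The line was grown from a single-cell clone, and cells given dox without a MIB1 guide were not analysed here, so responses to dox, to Cas9 and to MIB1 disruption cannot be told apart. The study calls the 2 samples of a condition biological replicates, whereas the labels do not say whether they were grown on separate occasions.

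In the ERK pathway, growth factor receptors such as EGFR activate RAS, and RAS passes the signal through RAF and MEK to the kinase ERK. Active ERK induces genes whose products restrain the same cascade: dual-specificity phosphatases remove the activating phosphates from ERK, and Sprouty and SPRED proteins limit RAS and RAF activation. It also raises the PEA3 transcription factors, which carry part of the transcriptional output, and ligand genes such as AREG and EREG, whose products are shed from the cell surface and bind EGFR. RNA levels of such feedback genes are widely read as a measure of ERK activity in lung cancer cells.

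Between 15943025 and 24398411 reads were counted per library, and both dox libraries were the shallower. MIB1 stood at 2.66 and 2.81 RPKM (reads scaled by gene length and library size) without dox and at 0.617 and 0.340 RPKM with dox, a difference of -2.58 ± 0.23 on the log2 scale (SE; limma, adjusted p = 0.000375) and in the direction of the labels. With any 1 library left out it lay between -2.998 and -2.16 but no longer passed the adjusted threshold. Of the 7 epithelial and lung markers checked, EPCAM, CDH1, KRT8 and KRT18 had the reads to be tested, SFTPC never exceeded 8 reads, and KRT19 and NKX2-1 had 0 reads throughout. Their summed level was 83.0 and 91.7 RPKM without dox and 67.5 and 72.3 RPKM with dox. The keratins KRT8 (-0.34) and KRT18 (-0.41) had lower log2 estimates with dox, EPCAM (0.13) and CDH1 (0.25) higher ones, each without overlap of the groups and none called. Of the 6 markers of other cell types, 3 had 0 reads in every library, and the 6 summed to between 0.272 and 0.856 RPKM. Most of that sum was COL1A1, at 0.563 and 0.557 RPKM without dox and 0.215 and 0.681 RPKM with dox. It was tested and not called. The part of these marker levels in the results below was not tested.

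None of the feedback genes or ligands was called in the dox comparison by limma with no term for the replicate number, where a call required an adjusted p of at most 0.05 and at least a 2-fold change. By this rule 0.0371% of the 16181 genes tested were called, 6 in all, and 0 when any 1 of the 4 libraries was left out. Of the feedback genes and ligands, edgeR and DESeq2 also called 0. DESeq2 gave no adjusted p for SPRY4 or AREG, so it could not have called either gene. The largest estimates belonged to SPRY4 and DUSP6, at 2.26-fold and 2.19-fold, followed by DUSP5 at 1.50-fold. All 9 genes with enough reads to test, except AREG, had a log2 fold change above 0, with a median of 0.22 against -0.00042 over all genes tested. Because these genes were chosen with earlier results of the same samples known, their counts describe them and are not independent evidence of a direction.

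At an unadjusted p under 0.05, 4 of the 9 were higher with dox (DUSP5, DUSP6, SPRY4 and ETV5) and 0 were lower, where 4.68% and 4.59% of all genes tested were higher and lower by that rule. Both dox libraries lay above both no dox libraries in 6 of the 9 genes, and 0 of the 9 showed the opposite order. Over all genes tested, 19.5% had both dox libraries above and 19.1% had both below. These orders were read on the quantile-normalized scale of the limma fit. With 2 samples against 2, an exact permutation test cannot reach a p below 0.333, so the p-values are those of limma. The filter on low counts bore little on this set: 8 of the 9 passed it in every library, and AREG missed it in dox replicate 1 alone. In bulk RNA, more RNA per cell cannot be told apart from more cells that transcribe a gene.

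**Figure D1:**
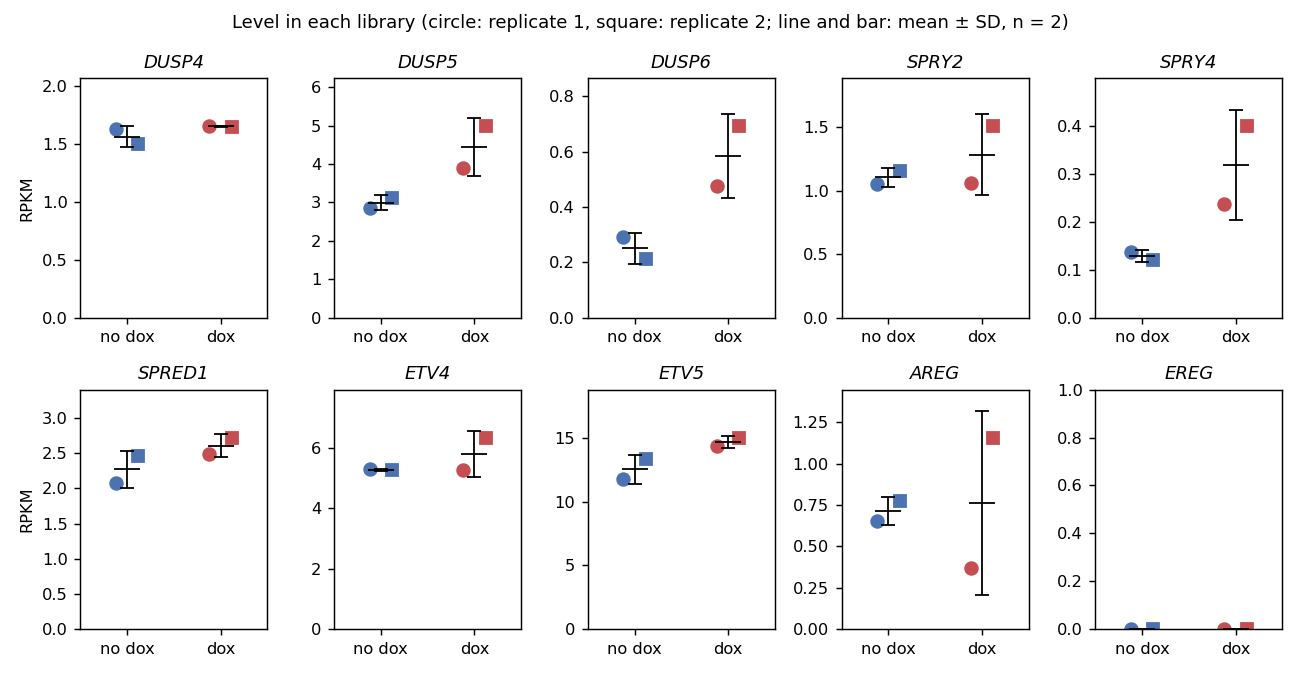
Level of each of the 10 genes in RPKM (vertical axis, from 0, scaled per gene) in the 2 no dox (blue) and 2 dox (red) libraries, with mean ± SD. The dox libraries lie above the no dox libraries for DUSP5, DUSP6 and SPRY4, those of SPRY2, ETV4 and AREG straddle or meet the no dox values, and EREG is at 0.

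The libraries of the dox group were not alike for these genes. Levels were compared in log2 CPM (the log2 of reads relative to library size) after quantile normalization, which gives all libraries the same distribution. On that scale dox replicate 2 was the highest of the 4 libraries in 8 of the 9 genes. In the ninth, DUSP4, dox replicate 1 stood just above dox replicate 2, at 3.61 against 3.60. Over all genes tested, dox replicate 2 was the highest in 27.0%. When dox replicate 2 was left out, the log2 estimates were 0.84 for DUSP6, 0.76 for SPRY4, 0.40 for DUSP5 and 0.22 for ETV5, while that of SPRY2 turned to -0.10. The difference between the dox libraries has no label attached to it, and its source was not tested.

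**Figure D2:**
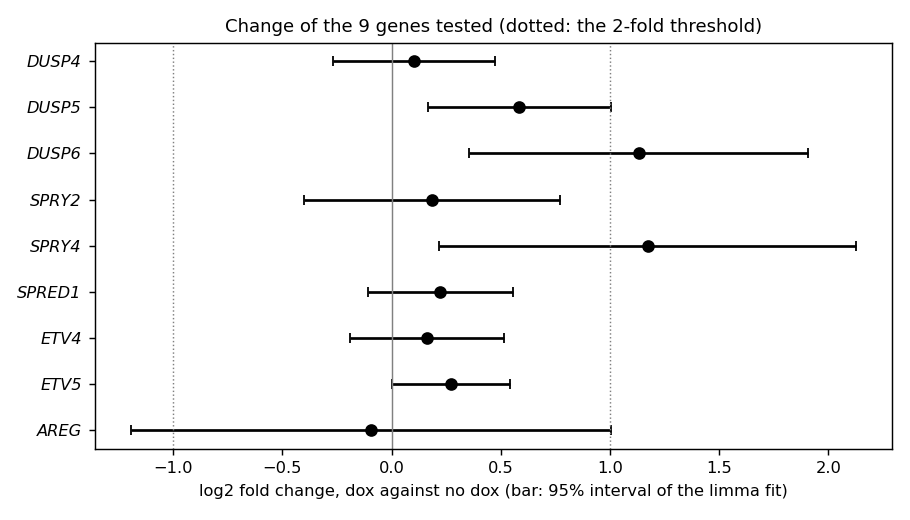
Log2 fold change of dox against no dox (horizontal axis) for the 9 genes tested, with the 95% interval of the limma fit. The intervals of DUSP5, DUSP6, SPRY4 and, barely, ETV5 lie above 0 before adjustment for the number of genes, and the interval of AREG is the widest.

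The EGFR ligands are an input to the pathway. AREG (chromosome 4, 74445136 to 74455005, plus strand of GRCh38) encodes amphiregulin, a low-affinity EGFR ligand made as a transmembrane precursor. The no dox libraries held 19 and 21 reads of it, the dox libraries 7 and 26. As RPKM these were 0.652 and 0.774 against 0.370 and 1.16, so the dox libraries held both the lowest and the highest value. On the log2 scale the groups differed by -0.09 ± 0.51 (SE; limma, adjusted p = 0.975). This estimate had a 95% interval from -1.19 to 1.00 and turned with the library left out, to 0.67 without dox replicate 1 and -0.92 without dox replicate 2. That interval includes a 2-fold difference in either direction, so a change of that size in AREG was not excluded by these data.

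The AREG promoter is shown because it carries a cyclic AMP response element (CRE), a motif through which this gene is known to be induced. The stretch covers the 100 bases before the RefSeq start, chr4:74445036-74445135 on the plus strand of GRCh38.p14, and the capitals mark the CRE, TGACGTCA, whose first base lies 65 bases before the start.
AREG: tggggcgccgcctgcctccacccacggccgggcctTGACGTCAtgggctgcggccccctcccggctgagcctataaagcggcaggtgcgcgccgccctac
Of 35116 RefSeq promoters of the same 300-base length, searched on both strands, 1.85% held this motif. A match describes the letters of the sequence and not a bound site.

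EREG (chromosome 4, 74365145 to 74388749, plus strand), the gene of epiregulin, lies upstream of AREG on the same strand. It had 0 reads in all 4 libraries, which allows up to 3 reads in each, or between 0.123 and 0.188 CPM. It was not tested, and no fold is given. Of 10 housekeeping genes checked, 0 were at 0 in every library. Among all 11 ligand genes of the EGFR family listed, NRG4 made up between 64.5% and 81.0% of the summed RPKM of a library, HBEGF between 12.5% and 23.7%, and AREG between 3.21% and 11.8%. AREG was thus the third ligand of these cells by RPKM in every library, under NRG4 and HBEGF, the gene of heparin-binding EGF-like growth factor. NRG4 encodes a ligand of ERBB4, and ERBB4 itself had 0 reads in all 4 libraries.

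The phosphatase genes came next, whose products act on ERK itself. ERK activity was not measured in these RNA samples. DUSP6 (chromosome 12, 89347235 to 89352501, minus strand) encodes a cytoplasmic phosphatase that acts on ERK in preference to other MAP kinases. It was counted 31 and 21 times in the no dox libraries and 33 and 57 times in the shallower dox libraries. Scaled to RPKM, the controls stood at 0.290 and 0.211 and the dox libraries at 0.476 and 0.692, and the groups did not overlap. The group means, 0.251 ± 0.0560 and 0.584 ± 0.152 RPKM (SD, n = 2 each), had a ratio of 2.33. The limma estimate on the log2 scale was 1.13 ± 0.36 (SE; unadjusted p = 0.00732, adjusted p = 0.350), with a 95% interval from 0.36 to 1.91. On the log2(RPKM + 1) scale, which understates differences of genes this low, the same comparison gave 0.34. An annotated noncoding gene on the opposite strand overlaps exonic sequence of DUSP6, and no source states that strand was used in counting.

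The DUSP6 promoter is shown beside that of SPRY4, since the largest estimates of the set belonged to these genes. ERK relieves repression by Capicua (CIC), which binds octamers spelled TGAATGAA, TGAATGGA, TCAATGAA or TCAATGGA, and capitals mark matches to any of these on either strand. The DUSP6 stretch, chr12:89352482-89352581 on the minus strand of GRCh38.p14, runs from 80 bases before to 20 bases after the RefSeq start. The SPRY4 stretch, chr5:142324248-142324347 on the minus strand, covers the 100 bases before the RefSeq start, which lies inside the GENCODE gene.
DUSP6: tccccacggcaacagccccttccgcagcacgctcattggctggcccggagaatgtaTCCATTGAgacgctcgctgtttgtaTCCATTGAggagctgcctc
SPRY4: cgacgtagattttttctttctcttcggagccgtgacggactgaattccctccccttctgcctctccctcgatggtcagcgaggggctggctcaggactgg
DUSP6 held 2 matches, both reading TCCATTGA on the gene's strand and TCAATGGA on the other, the first beginning 24 bases before the start and the second at base 2 of the transcript. SPRY4 held 0 matches in its whole 300-base window. Of the 35116 promoters, 3.77% held at least 1 such octamer and 0.327% held 2 or more. The promoter table held 6 of the 10 genes (AREG, EREG, SPRY4, DUSP6, SPRY2 and SPRED1), SPRY2 with 3 starts. Among their other windows, the ETS core CCGGAA occurred once in AREG and once in SPRY2, against 17.2% of all promoters, and the AP-1 motifs TGACTCA and TGAGTCA occurred in 0 of the 8 windows, against 4.95%.

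DUSP5 (chromosome 10, 110497907 to 110511533, plus strand) encodes a nuclear phosphatase that is selective for ERK. It had 172, 175, 152 and 231 reads in no dox replicates 1 and 2 and dox replicates 1 and 2. Its RPKM was 2.86 and 3.13 without dox and 3.90 and 4.98 with dox. Both dox libraries were the higher, and the dox libraries differed from each other by more than the no dox libraries did. The estimated log2 fold change, 0.58 ± 0.20 (SE; limma, unadjusted p = 0.00963, adjusted p = 0.362), had a 95% interval from 0.17 to 1.00. It lay between 0.40 and 0.76 when any 1 library was omitted.

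DUSP4 (chromosome 8, 29333064 to 29350684, minus strand) encodes a nuclear phosphatase that acts on ERK and other MAP kinases. Its RPKM was 1.63 and 1.50 without dox and 1.65 in both dox libraries. The dox values were above both controls, but barely above no dox replicate 1. A log2 difference of 0.10 ± 0.17 (SE; limma, adjusted p = 0.901) was estimated, and its 95% interval, from -0.27 to 0.47, lay inside a 2-fold change. Omitting 1 library moved it from 0.026, without no dox replicate 2, to 0.19, without no dox replicate 1. The phosphatases in the set thus had estimates from 1.07-fold for DUSP4 to 2.19-fold for DUSP6, and whether they differed from each other was not tested. By RPKM all 3 were minor members of their class: of the summed RPKM of 10 MAP kinase phosphatase genes, DUSP1 made up between 76.4% and 78.8%, DUSP5 between 4.90% and 6.35%, DUSP4 between 2.10% and 2.79%, and DUSP6 between 0.347% and 0.881%.

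Sprouty and SPRED proteins act higher in the cascade. SPRY4 (chromosome 5, 142310427 to 142326455, minus strand) encodes a Sprouty protein that limits RAS and RAF activation. It had few reads, 16 and 13 in the no dox libraries against 18 and 36 in the dox libraries. The RPKM values were 0.137 and 0.119 in the controls, compared with 0.237 and 0.399 under dox, and the group means had a ratio of 2.48. The groups did not overlap, and the highest value was again that of dox replicate 2. With limma the log2 estimate was 1.17 ± 0.45 (SE; unadjusted p = 0.0194, adjusted p = 0.433), with a 95% interval from 0.22 to 2.13, and it was 0.76 without dox replicate 2 and 0.22 on the log2(RPKM + 1) scale. SPRY4-AS1, a noncoding gene on the opposite strand, overlaps exonic sequence of SPRY4, so their reads cannot be separated if strand was not used.

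SPRY2 (chromosome 13, 80335976 to 80341126, minus strand), the Sprouty gene with the highest RPKM in these cells, did not separate the groups. RPKM values were 1.05 and 1.16 in the controls and 1.06 and 1.51 under dox, so dox replicate 1 lay with the controls. SPRY2 differed by 0.19 ± 0.27 in log2 (SE; limma, adjusted p = 0.883), with a 95% interval from -0.40 to 0.77. SPRED1 (chromosome 15, 38252836 to 38357249, plus strand) encodes the SPRED protein that brings the RAS inactivator neurofibromin to the membrane. It stood at 2.08 and 2.46 RPKM in the controls and at 2.50 and 2.72 RPKM under dox, so the groups were apart but nearly touched. Its log2 estimate of 0.22 ± 0.16 (SE; limma, adjusted p = 0.705) had a 95% interval from -0.11 to 0.56, and it was 0.11 without no dox replicate 1. Of the summed RPKM of the 7 Sprouty and SPRED genes, SPRY4 took 2.15% and 1.62% without dox and 3.44% and 4.71% with dox, while SPRED2 and SPRED1 together held most of it in every library.

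The PEA3 genes had the highest RPKM of the set. ETV5 (chromosome 3, 186046314 to 186110318, minus strand) had 1198, 1270, 950 and 1183 reads in the 4 libraries, the most of any gene here. These correspond to 11.8 and 13.4 RPKM in the controls and 14.4 and 15.1 RPKM under dox, without overlap. The difference was 0.27 ± 0.13 on the log2 scale (SE; limma, unadjusted p = 0.0496, adjusted p = 0.537), with a 95% interval from 0.00049 to 0.54, so a 2-fold change lay outside the interval. Without no dox replicate 1 it was 0.16. ETV5-AS1 on the opposite strand and DGKG on the same strand overlap exonic sequence of ETV5.

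ETV4 (chromosome 17, 43527844 to 43579620, minus strand) had RPKM values of 5.30 and 5.25 without dox and 5.26 and 6.34 with dox. Of the dox libraries, replicate 1 lay between the controls and replicate 2 alone stood above them. ETV4 thus differed by 0.16 ± 0.16 on the log2 scale (SE; limma, adjusted p = 0.818), with a 95% interval from -0.19 to 0.51, and by 0.017 without dox replicate 2. The gene DHX8, on the opposite strand, overlaps exonic sequence of ETV4. ETV5 made up between 62.9% and 66.2% of the summed RPKM of the PEA3 genes, ETV4 between 24.2% and 28.4%, and ETV1, the remaining PEA3 gene, between 8.14% and 10.6%.

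By RPKM without dox the order was ETV5 (12.6), ETV4 (5.27), DUSP5 (2.99), SPRED1 (2.27), DUSP4 (1.56), SPRY2 (1.10), AREG (0.713), DUSP6 (0.251), SPRY4 (0.128) and EREG (0), where the values are group means. No neighbours in that order had overlapping libraries. With dox the order was the same, at 14.7, 5.80, 4.44, 2.61, 1.65, 1.28, 0.764, 0.584, 0.318 and 0 RPKM. There the libraries of SPRY2 overlapped those of AREG and the libraries of AREG overlapped those of DUSP6, and the gaps between ETV4 and DUSP5 and between DUSP6 and SPRY4 were smaller than the summed SDs. Among the 16181 genes tested, ranked by mean RPKM, ETV5 lay at the 72.2 percentile, DUSP6 at the 9.45 percentile and SPRY4 at the 3.82 percentile. The genes with the largest estimates were therefore among the genes of lowest RPKM that could be tested.

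The rest of the pathway was followed through 8 lists with 67 genes, of which 50 had enough reads. Of these, 0 were called in either direction by limma, edgeR or DESeq2, 5 had an unadjusted p under 0.05 and were higher with dox, and 2 were lower, where the shares over all genes tested were 4.68% and 4.59%. Their median log2 fold change was 0.07, and it ranged from -0.016 without dox replicate 2, and 0.0051 without no dox replicate 1, to 0.15 without dox replicate 1. The 18 cascade components from GRB2 to the RSK kinases had a median of 0.03, with estimates from -0.36 for HRAS to 0.12 for SOS1, and 17 of 18 had an unadjusted p of 0.05 or more. The EGFR family receptors and their inhibitors (7 of 8 tested) had a median of -0.00065, from -0.40 for SOCS5, a suppressor of EGFR signaling, to 0.31 for EGFR itself, whose RPKM was 0.747, 0.879, 0.880 and 1.10 in the 4 libraries. The RAS GTPase-activating proteins (6 of 8 tested) had a median of 0.04, from -0.11 for DAB2IP to 0.19 for RASA1. The sheddases that release EGFR ligands stood at -0.05 for ADAM10 and 0.13 for ADAM17, and the ligands HBEGF and NRG4 at 0.11 and -0.04, all on the log2 scale, and the smallest adjusted p among these 4 was 0.789 (limma).

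**Figure D3:**
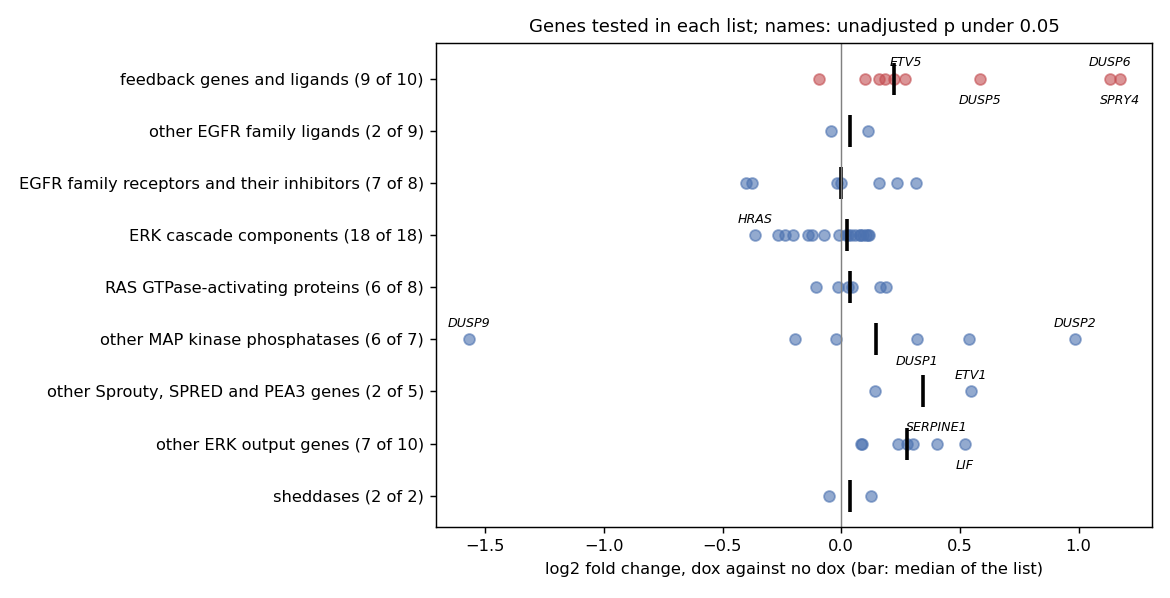
Log2 fold change of dox against no dox (horizontal axis) for each gene tested in the feedback set (red) and in the 8 other lists (blue), with the median of each list as a bar and the number tested of those listed in brackets. Genes with an unadjusted p under 0.05 are named, and they lie in the feedback, phosphatase, PEA3, output and cascade rows.

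Among the other MAP kinase phosphatases (6 of 7 tested, median 0.15), DUSP2, which encodes a nuclear phosphatase for ERK, had 2.80 and 2.73 RPKM in the controls and 5.71 and 5.26 RPKM under dox. Its dox libraries were close to each other and well apart from the controls, and the log2 difference was 0.99 ± 0.21 (SE; limma, unadjusted p = 0.000282, adjusted p = 0.165). DUSP9, another ERK phosphatase gene, stood at the opposite end, at -1.57 ± 0.62 (SE; limma, adjusted p = 0.452), from 34 and 14 reads in the controls and 3 and 9 under dox. It passed the filter on low counts in both controls but missed it in dox replicate 1. DUSP1, the most abundant phosphatase transcript, stood at 0.32 on the log2 scale (limma, adjusted p = 0.437) and was named after its values were seen. Among the remaining Sprouty, SPRED and PEA3 genes, 2 of 5 could be tested: ETV1 had 1.55 and 1.65 RPKM in the controls and 2.09 and 2.55 RPKM under dox, a log2 difference of 0.55 ± 0.17 (SE; limma, adjusted p = 0.315), and SPRED2 had 0.14.

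The 7 other ERK output genes tested, of 10 listed, all had log2 fold changes above 0, from 0.08 for EPHA2 to 0.52 for LIF, with a median of 0.28. Both dox libraries lay above both no dox libraries in 4 of the 7 and below them in 0, where 19.5% and 19.1% of all genes tested had these orders. LIF, the gene of leukemia inhibitory factor, had 1.20 RPKM in both no dox libraries and 1.54 and 1.96 RPKM with dox, with an adjusted p of 0.504 (limma). The highest value again belonged to dox replicate 2. None of the 7 was called. The lists share no genes with the feedback set, but they were measured in the same libraries. They were also chosen with earlier results of these data known, so they are not independent evidence of a direction.

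**Figure D4:**
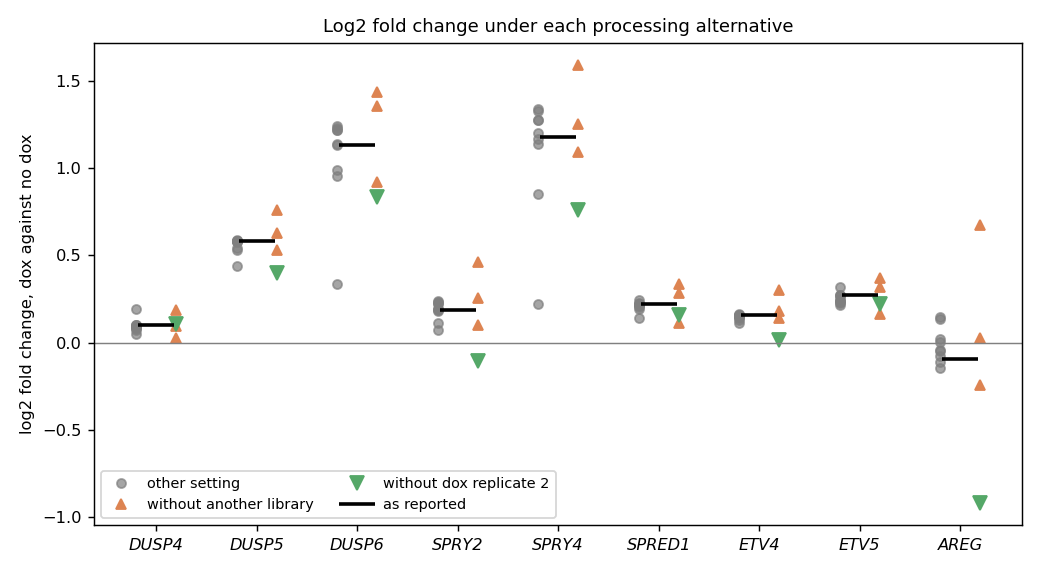
Log2 fold change of dox against no dox (vertical axis) for the 9 genes tested, as reported (bar), under other normalizations, models, filters and units (grey) and with 1 library left out (triangles). DUSP5, DUSP6 and SPRY4 stay above 0 under each, the low grey points of DUSP6 (0.34) and SPRY4 (0.22) are on the log2(RPKM + 1) scale, and SPRY2 and AREG cross 0.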

How the data were processed

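RNA-seq of 4 MIB1-iKO samples was analysed. Per the study's methods, the authors discarded ribosomal reads, mapped the others with GSNAP (GRCh38) and used HTSeqGenie to count them over exons. The authors deposited read counts, whole numbers per gene and not normalized, and RPKM values. For each gene the deposited RPKM were the counts times a factor per library, which departed from the total count by up to 1.10 times, so RPKM carry a further scaling. The methods name a RefSeq annotation, while the deposited identifiers are Ensembl. Which of the described kits, stranded or not, was used is not given in the sources used here.

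Symbols were matched by Ensembl identifier to GENCODE release 44 (57532 of 58302), which also gave positions. Promoters are RefSeq sequences of GRCh38.p14. Genes were kept by filterByExpr (16181), a filter that the study's methods do not name. As in those methods, counts were then scaled by library size, quantile-normalized, weighted with voom and compared with limma (3.58.1, under R 4.3.3), with Benjamini-Hochberg adjustment over all genes tested. Called genes had an adjusted p no higher than 0.05 and a log2 fold change of 1 or more in either direction. Alternatives were edgeR 4.0.16, DESeq2 1.42.0, other scalings and filters, log2(RPKM + 0.1) and log2(RPKM + 1) with limma, the replicate number as a term, leaving out each library, and, chosen after the data were seen, thinning to the smallest total. On simulated counts for dox against no dox (16181 genes, 200 changed 4-fold), limma recovered 198. Only genes above a minimum expected count were changed, and every gene was given the same spread. Changes under 4-fold and changes in the genes with the fewest reads were not simulated, so the recovery does not apply to them.

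The 10 genes and the lists were chosen with earlier results of these data known. Named genes are MIB1, the 10 genes, and in each other list every called gene and those with the highest and lowest log2 fold change. Total counts of 15943025 to 24398411 set the precision, and 3 reads were taken as the limit for a gene at 0. That limit reflects counting error only, since amplified reads are not independent molecules. A chi-square test of the counts gave 8.18 or more per degree of freedom for every pair of libraries, so none repeated another.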

Additional observations from a re-analysis of the deposited data

How the results depend on the processing

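Of 123 values for the 9 genes over 14 alternatives, 116 kept their direction, and 7 of the 9 genes never changed sign. Of these values, 63 come from fits that called 0 genes in all, so they bear on direction alone. The exceptions were AREG, whose log2 fold change was 0.15 with edgeR, 0.13 with DESeq2, 0.0062 on log2(RPKM + 1) and 0.022 with the replicate block, and from -0.92 to 0.67 on leaving out 1 library, and SPRY2, from -0.10 (without dox replicate 2) to 0.46 on leaving out 1 library. The cause was not tested. DUSP6, SPRY4 and AREG had mean counts under 50 and dropped out at that filter. Over the alternatives that left out no library, the adjusted p lay between 0.0328 and 0.613 for DUSP6 (limma, edgeR or DESeq2). By the same tests it lay between 0.0226 and 0.613 for DUSP5. For SPRY4 it lay between 0.0776 and 0.613 (limma or edgeR), and DESeq2 gave SPRY4 no adjusted p. The median of the 9 genes was 0.46 without dox replicate 1.

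The number of genes called overall was 6. It was 0 with no filter beyond 1 read (2092 at an unadjusted p under 0.05), 0 on log2(RPKM + 0.1) and 0 on log2(RPKM + 1) (1442 and 1438), and 0 with any library left out, a fit in which the lone sample is assumed to vary like the other group (833 to 1042). At an adjusted p of at most 0.05 with no fold threshold it was 11. MIB1 kept its direction throughout and lost its call with no filter, on both RPKM scales and with any library left out.

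The groups share replicate numbers, whose meaning the labels leave unstated, and the deviations of same-numbered libraries correlated at 0.134 over genes with only 2 pairs, so the numbers were not taken to pair the samples. With the replicate block 78 genes were called (41 higher, 37 lower), and 1154 had an adjusted p of at most 0.05. Of the feedback genes DUSP6 was called (log2 fold change 1.14, limma, adjusted p = 0.0328), while DUSP5 (0.58, adjusted p = 0.0226) and ETV5 (0.27, adjusted p = 0.0357) passed the threshold on p but not on fold. None of the 50 other pathway genes was called under any alternative.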
